A study of Mus musculus with 6 samples.

Results

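Genes of fibroblast growth factor (FGF) signalling and of the feedback on the kinase ERK were followed through 6 RNA-seq libraries of mouse epidermis. The set holds 32 genes out of 49377 in the deposited table, listed by name as FGF ligands, FGF receptors, Sprouty and Spred inhibitors, ERK phosphatases of the Dusp family, Etv transcription factors and Phlda1. All 32 were found in the table, and 22 had a mean of at least 1 FPKM over the 6 libraries (fragments scaled by transcript length and library total, a level per length) and were tested. The epidermis came from C57BL/6 mice at E19.5, close to birth, with 3 libraries labelled control (261, 262 and 264) and 3 labelled Rictor -/- (263, 265 and 266), and control values are given in that order throughout. Rictor encodes a subunit that defines mTOR complex 2, a kinase complex acting on AKT, and the series asks how transcript levels differ without it. The Cre driver, the deleted exons, the alleles of the controls and whether each library came from its own animal were not given in the sources used here, so p-values measure the spread between these libraries, which may in part be technical.

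FGF ligands bind receptor tyrosine kinases together with heparan sulfate chains at the cell surface, and the activated receptor signals through adaptor proteins to RAS and on to ERK. Active ERK switches on genes that restrain it. Sprouty and Spred proteins act on RAS activation and its coupling to RAF, Dusp phosphatases remove the activating phosphates from ERK, and the ETS factors Etv1, Etv4 and Etv5 are transcriptional outputs of FGF signalling. Other growth factor receptors that signal through RAS, including the EGF receptor, feed the same loop, so the feedback genes are not readouts of FGF alone. In skin, FGF receptor 2 on keratinocytes receives FGF7 and FGF10 from the dermis.

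Rictor itself stood at 5.63, 6.02 and 4.37 FPKM in the controls and at 6.83, 7.04 and 6.86 FPKM in 263, 265 and 266, so the transcript was not lower under the Rictor -/- label (log2 difference 0.33 ± 0.11 SE, limma adjusted p = 0.0693). A whole-gene value can keep reads from exons outside a deletion and does not check the labels. All directions given here are those of the libraries labelled knockout against those labelled control. Each library summed to between 609375 and 672925 FPKM, and from the steps of low values the depths lay within a factor of 1.21 of control 261. Keratinocyte markers were high in every library (8 of 8 tested, summed level 42200 to 44400 FPKM). Control 264 stood apart: its deviations from the gene means fell with exonic length (Spearman's rho -0.375 across genes, which are not independent replicates) against -0.01 and 0.004 in controls 261 and 262 and 0.171 to 0.265 in the knockout-labelled libraries. This length trend runs with the label. The median exonic length was 3132 bases for the members that rose and 4093 bases for all tested genes.

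Of the 22 tested members 9 rose and 1 fell in the knockout-labelled libraries, where 7.98% of all 13147 tested genes rose and 15.5% fell (limma on log2(FPKM + 1), Benjamini-Hochberg adjusted p under 0.05). Those that rose were Etv4, Dusp6, Fgf1, Dusp7, Etv5, Dusp5, Phlda1, Spry2 and Spred1, and the one that fell was Fgf22. By role, 3 of 4 tested ERK phosphatases, 2 of 2 Etv factors, 2 of 5 Sprouty and Spred inhibitors, 1 of 6 ligands and Phlda1 rose, and 0 of 4 receptors passed the test in either direction. The median log2 difference was 0.28 over the tested members and -0.06 over all tested genes. In 13 of the 22 the libraries of the 2 groups did not overlap with the knockout-labelled ones higher, and in 1 with them lower, against 16.7% and 28.8% of all tested genes. No tested member entered through 1 group alone. The split of directions over all genes depended on scaling: as deposited 34% of called genes were higher, against 44.9%, 49.8%, 47.6% and 49.3% after median scaling, trimmed mean scaling, quantile normalization and a gene length adjustment, under which 10, 10, 12 and 12 members rose and 1 fell.

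**Figure D1:**
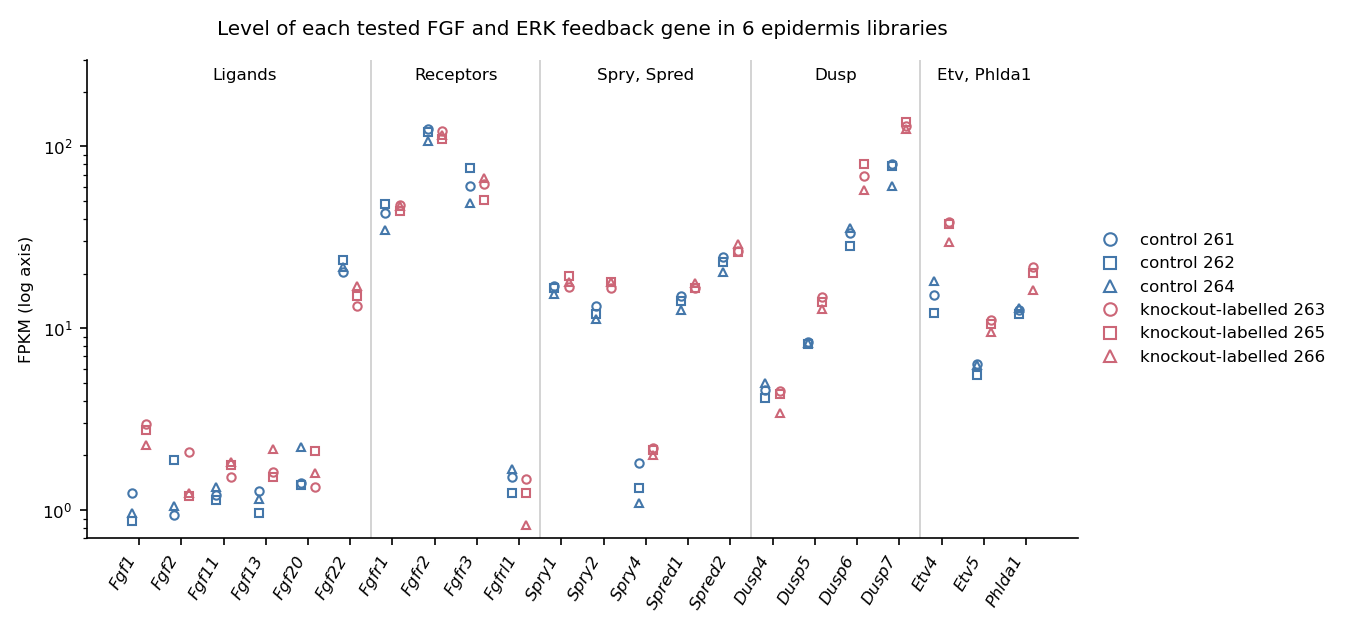
FPKM on a log axis for the 22 tested members, grouped by role, with a point for each of the 3 control (blue) and 3 knockout-labelled (red) libraries. Dusp5, Dusp6, Dusp7, Etv4, Etv5 and Phlda1 have every red point above every blue point, while the points of Fgfr1, Fgfr2 and Fgfr3 overlap.

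Among the ligands 1 of 6 tested genes rose and 1 fell, where 7.98% of all tested genes rose and 15.5% fell. Fgf22 (ENSMUSG00000020327, chromosome 10, 79755076 to 79758596), a ligand known from the inner root sheath of the hair follicle, was the most abundant ligand in every library. It stood at 20.3, 23.8 and 21.8 FPKM in the controls and at 13.2, 15.0 and 17.1 FPKM in 263, 265 and 266. All 3 knockout-labelled values lay below all 3 control values, and the mean fell from 22.0 ± 1.75 to 15.1 ± 1.92 FPKM (± SD, 3 libraries per group), a log2 difference of -0.52 ± 0.10 (SE, limma adjusted p = 0.0158). The call was lost without control 262, without 263 and without 265 (limma adjusted p = 0.0515, 0.0550 and 0.0584). Of 13 hair follicle markers tested, 11 fell and 0 rose, and the summed level of those markers ran from 1850 to 2320 FPKM in controls and from 1150 to 1310 FPKM in the knockout-labelled libraries. Their part in the lower Fgf22 was not tested, and in whole epidermis fewer cells of a type and less RNA per cell cannot be told apart. Fgf22 also shares 82 exonic bases with Rnf126 on the opposite strand (mean 59.8 FPKM), whose log2 difference was 0.15 (limma adjusted p = 0.122), with the strandedness of the libraries not given in the sources used here.

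Fgf1 (ENSMUSG00000036585, chromosome 18, 38838673 to 38929472), a ligand that binds all the FGF receptor types and lacks a classical secretion signal, rose from a low level. Its values were 1.25, 0.873 and 0.966 FPKM in the controls and 2.97, 2.77 and 2.27 FPKM in 263, 265 and 266, with no overlap. The means were 1.03 ± 0.195 and 2.67 ± 0.365 FPKM (± SD, 3 libraries per group), 2.60-fold apart. The log2 difference was 0.86 ± 0.12 (SE, limma adjusted p = 0.00592), and because the gene is low it was 1.3 with a pseudocount of 0.1 and 0.35 with a pseudocount of 5. Of the ligand FPKM summed over the 12 ligand members, Fgf22 held 73.6% to 77.5% in controls and 57.3% to 64.0% in the knockout-labelled libraries, and Fgf1 held 2.84% to 4.59% and 8.49% to 12.9%. The 12 include Fgf11 and Fgf13, which are not secreted receptor ligands. Fgf11 held 3.72% to 4.54% and 6.6% to 7.13%, and Fgf13 held 3.15% to 4.68% and 6.17% to 8.1%. The sum itself ran from 27.2 to 30.7 FPKM in controls and from 23.1 to 26.7 FPKM under the knockout label.

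Fgf11 and Fgf13 belong to the intracellular FGF homologous factors, which bind sodium channels and are not secreted receptor ligands. Fgf11 stood at 1.21, 1.14 and 1.34 FPKM in the controls and at 1.53, 1.77 and 1.85 FPKM in 263, 265 and 266. The values of Fgf13 were 1.27, 0.969 and 1.16 FPKM in the controls and 1.62, 1.53 and 2.16 FPKM in 263, 265 and 266. Neither gene had overlapping groups and neither passed limma's threshold, with log2 differences of 0.28 ± 0.10 (adjusted p = 0.0941) and 0.37 ± 0.13 (adjusted p = 0.0776). Fgf2, the basic FGF, and Fgf20, a ligand of hair placodes, overlapped between groups. Fgf2 ran from 0.942 to 1.89 FPKM in controls and from 1.2 to 2.1 FPKM under the knockout label, and Fgf20 from 1.37 to 2.22 and from 1.34 to 2.13 FPKM. Their log2 differences were 0.14 ± 0.21 and 0.02 ± 0.17 (limma adjusted p = 0.660 and 0.956). Fgf2 shares 640 exonic bases with Nudt6 and Fgf20 shares 202 with Micu3, both on the opposite strand. Fgfr2 shares 314 with Ctbp2 on the same strand, and the overlaps of Fgf10, Fgfr1, Fgfr3, Spry1 and Spred3 were with genes at means of at most 0.511 FPKM.

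No receptor passed the test. Fgfr2, whose epithelial splice form receives dermal FGF7 and FGF10, had the highest mean level of the 32 genes over the 6 libraries, at 124, 120 and 107 FPKM in the controls and 121, 110 and 116 FPKM in 263, 265 and 266. The groups overlapped, and the log2 difference was -0.02 ± 0.08 with a 95% interval of -0.20 to 0.17 (limma adjusted p = 0.904). Fgfr3 stood at 60.4, 75.9 and 48.7 FPKM in the controls and at 62.4, 50.9 and 66.8 FPKM in 263, 265 and 266. Its interval was wider, -0.44 to 0.39 around -0.02, because the controls themselves ranged from 48.7 to 75.9 FPKM. Fgfr1 was at 43.1, 48.1 and 34.8 FPKM in the controls and 47.6, 44.2 and 47.2 FPKM in 263, 265 and 266, a log2 difference of 0.15 ± 0.12 (interval -0.13 to 0.43, adjusted p = 0.391). The low control value of Fgfr1 belonged to library 264, as did the low values of Fgfr2 and Fgfr3. Fgfrl1, which binds FGF but has no kinase domain, stood at 1.52, 1.24 and 1.69 FPKM in the controls and at 1.49, 1.24 and 0.830 FPKM in 263, 265 and 266 (-0.19 ± 0.15, adjusted p = 0.385). By level the order was Fgfr2, Fgfr3, Fgfr1 and Fgfrl1 in every library. Fgfr2 held 48.8% to 55.7% of the summed receptor FPKM in controls and 50.2% to 53.3% under the knockout label, Fgfr1 held 18.1% to 19.7% and 20.5% to 21.4% with no overlap, and the sums, 222 ± 27.2 and 223 ± 14.7 FPKM (± SD, 3 libraries per group), overlapped. Gene-level values do not separate the epithelial from the mesenchymal splice forms of the receptors. For Fgfr2 and Fgfr3 the sign depended on scaling, positive after median scaling, trimmed mean scaling and quantile normalization.

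**Figure D2:**
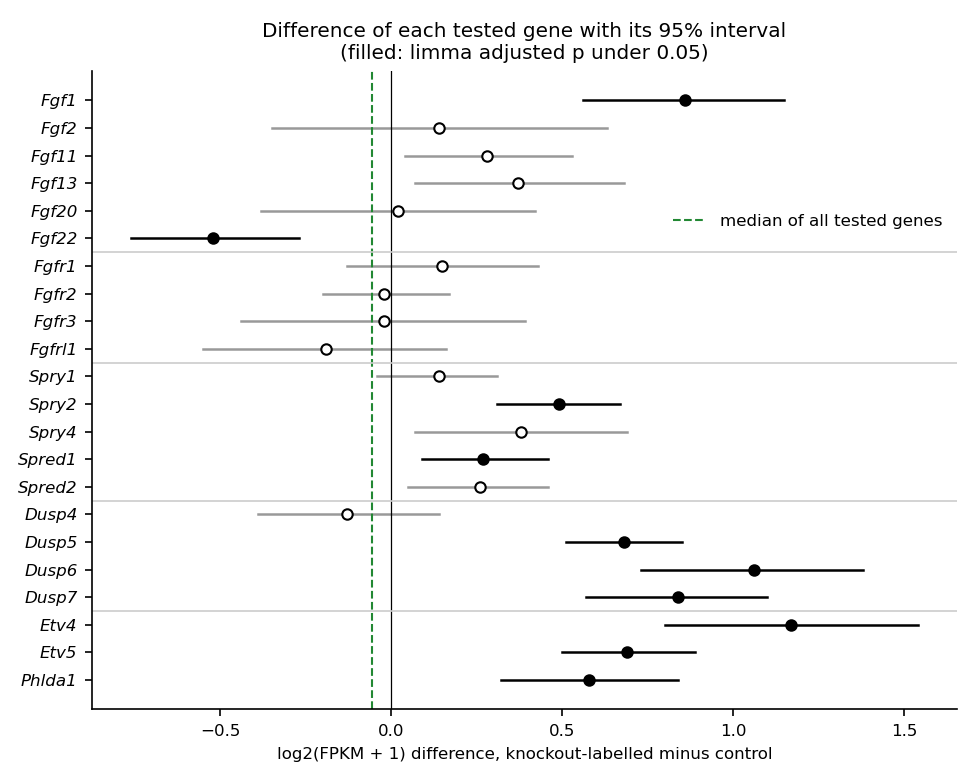
Log2(FPKM + 1) difference of each tested member, knockout-labelled minus control, with 95% intervals, filled where limma's adjusted p is under 0.05. The intervals of Fgfr1, Fgfr2, Fgfr3 and Fgfrl1 span 0, while those of Dusp6 (0.73 to 1.38) and Etv4 (0.80 to 1.54) lie furthest to the right, and the dashed line marks the median of all tested genes at -0.06.

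Of 5 tested Sprouty and Spred inhibitors 2 rose, Spry2 and Spred1, and Spry1, Spry4 and Spred2 did not pass (7.98% of all tested genes rose). Spry2 (ENSMUSG00000022114, chromosome 14, 105891947 to 105896819), a Sprouty that restrains RAS signalling below receptor tyrosine kinases, stood at 13.2, 12 and 11.3 FPKM in the controls and at 16.6, 18 and 17.9 FPKM in 263, 265 and 266. The groups did not overlap, the mean rose from 12.2 ± 0.974 to 17.5 ± 0.749 FPKM (± SD, 3 libraries per group), and the log2 difference was 0.49 ± 0.08 (limma adjusted p = 0.00696). Spry1, the Sprouty nearest to it in level, stood at 17.1, 16.6 and 15.4 FPKM in the controls and at 16.9, 19.4 and 17.9 FPKM in 263, 265 and 266. Its groups overlapped, and its log2 difference of 0.14 ± 0.07 (interval -0.04 to 0.31) did not pass (adjusted p = 0.225). Spry4 was low, at 1.82, 1.32 and 1.09 FPKM in the controls and 2.19, 2.15 and 2.0 FPKM in 263, 265 and 266 (0.38 ± 0.13, adjusted p = 0.0799). Control 261 had the highest of the 3 control values of Spry1, Spry2 and Spry4.

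Spred1 (ENSMUSG00000027351, chromosome 2, 117121374 to 117182279), which brings the RAS inactivator neurofibromin to the membrane, stood at 15.0, 14.2 and 12.6 FPKM in the controls and at 16.6, 16.7 and 17.7 FPKM in 263, 265 and 266. The log2 difference was 0.27 ± 0.08 (limma adjusted p = 0.0468), the call nearest to the threshold among the members, and it was lost in 5 of 6 fits that left out 1 library (all but the one without control 264) and with no filter, no intensity trend or a sex term. Spred2, its relative, was at 24.8, 23.0 and 20.5 FPKM in the controls and 26.6, 26.3 and 29.0 FPKM in 263, 265 and 266. Its groups did not overlap, but its log2 difference of 0.26 ± 0.08, close to that of Spred1, did not pass (adjusted p = 0.0715). Summed over the 7 Sprouty and Spred members the level was 67.3 ± 5.69 FPKM in controls and 82.9 ± 2.93 FPKM under the knockout label (± SD, 3 libraries per group).

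Of 4 ERK phosphatases 3 rose and Dusp4 did not pass (7.98% of all tested genes rose). Dusp6 (ENSMUSG00000019960, chromosome 10, 99263231 to 99267489), a cytoplasmic phosphatase selective for ERK, stood at 33.3, 28.2 and 35.7 FPKM in the controls and at 68.8, 80.1 and 57.6 FPKM in 263, 265 and 266. The lowest knockout-labelled value, that of 266, lay well above the highest control, and the mean rose 2.12-fold, from 32.4 ± 3.80 to 68.8 ± 11.2 FPKM (± SD, 3 libraries per group). The log2 difference was 1.06 ± 0.14 (limma adjusted p = 0.00455). Dusp7 (ENSMUSG00000053716, chromosome 9, 106368632 to 106375724), its cytoplasmic relative, was at 79.5, 78.1 and 60.9 FPKM in the controls and at 130, 136 and 124 FPKM in 263, 265 and 266. The lowest control value was that of library 264, and the difference of 0.84 ± 0.11 (adjusted p = 0.00494) was 0.71 without it (adjusted p = 0.00373). Dusp5 (ENSMUSG00000034765, chromosome 19, 53529109 to 53542431), a nuclear ERK phosphatase, varied little among the controls, at 8.40, 8.15 and 8.35 FPKM, against 14.9, 13.9 and 12.8 FPKM in 263, 265 and 266. Its log2 difference was 0.68 ± 0.07 (adjusted p = 0.00264), and 547 of its 2473 exonic bases are shared with an antisense gene for which no level was read. Dusp4, a nuclear phosphatase that also acts on other MAP kinases, stood at 4.57, 4.12 and 4.98 FPKM in the controls and at 4.55, 4.33 and 3.43 FPKM in 263, 265 and 266. Its interval of -0.39 to 0.14 around -0.13 lies below the intervals of the other 3 (0.51 to 0.85 for Dusp5, 0.73 to 1.38 for Dusp6 and 0.57 to 1.10 for Dusp7). Summed over the 4 genes the level went from 118 ± 8.02 to 217 ± 18.5 FPKM (± SD, 3 libraries per group), and Dusp7 held the largest share in every library (55.4% to 65.9%).

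The upstream sequences of the 3 phosphatase genes that rose together are shown because the members share a direction and because 1 of them holds a rare motif pair. They come from RefSeq on GRCm38.p6 and are written 5′ to 3′ on the gene's strand, here the plus strand for all of them. Each ends at the base before the GENCODE start, which for Dusp6 and Dusp7 is also the RefSeq start, while the RefSeq start of Dusp5 lies 36 bases further downstream. Capitals mark matches to the CArG box, the element bound by serum response factor. The windows are chr19:53528895-53529108 for Dusp5, chr10:99262981-99263230 for Dusp6 and chr9:106368382-106368631 for Dusp7.
Dusp5: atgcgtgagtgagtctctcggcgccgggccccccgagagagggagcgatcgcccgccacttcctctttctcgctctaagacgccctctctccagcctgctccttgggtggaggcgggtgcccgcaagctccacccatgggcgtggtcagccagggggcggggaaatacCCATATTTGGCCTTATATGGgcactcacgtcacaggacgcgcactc
Dusp6: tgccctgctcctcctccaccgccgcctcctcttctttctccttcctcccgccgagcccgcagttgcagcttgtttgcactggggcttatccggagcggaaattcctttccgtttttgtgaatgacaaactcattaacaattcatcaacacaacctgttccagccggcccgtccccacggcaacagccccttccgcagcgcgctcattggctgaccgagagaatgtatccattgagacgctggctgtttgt
Dusp7: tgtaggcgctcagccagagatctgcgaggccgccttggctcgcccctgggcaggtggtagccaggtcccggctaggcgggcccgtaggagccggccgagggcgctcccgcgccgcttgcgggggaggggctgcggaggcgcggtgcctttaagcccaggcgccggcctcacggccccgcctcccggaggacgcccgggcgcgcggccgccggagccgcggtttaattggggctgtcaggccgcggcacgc

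The Dusp5 window holds 2 CArG boxes side by side, at 82 to 73 and 72 to 63 bases before the RefSeq start, counted over the 36 bases that are not printed. In windows of 250 bases before the RefSeq start of 9012 tested genes, 1.08% held a CArG box on either strand and 2 windows held more than 1. The same windows were searched on both strands for other letters. These were an ETS string (CCGGAA, in 23.5% of all windows), an AP-1 element (TGANTCA, in 4.43%) and a cyclic AMP response element (TGACGTCA, in 2.84%). Windows were found for 14 tested members, 6 of them among those that rose. None of those 6 held the ETS, AP-1 or cyclic AMP letters, and of the other 8 only Fgfrl1 held one, the ETS string. The RefSeq start of Fgfrl1 lay 1847 bases downstream of its GENCODE start, so that window lies inside the annotated gene. Those of Fgf2 and Fgf13 do too, with RefSeq starts 307 and 723 bases downstream. A match is a description of letters and not a binding site, and no match says only that these letters are not in this window.

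Both Etv factors that were expressed rose. Etv4 (ENSMUSG00000017724, chromosome 11, 101769742 to 101785371), of the PEA3 group of ETS factors, stood at 15.2, 12.2 and 18.3 FPKM in the controls and at 38.5, 37.6 and 29.9 FPKM in 263, 265 and 266. It had the largest difference of the 22 tested members, 1.17 ± 0.16 on the log2 scale (limma adjusted p = 0.00486), with a mean that rose 2.32-fold, and 150 of the 13147 tested genes had a larger positive log2 difference. Etv5 (ENSMUSG00000013089, chromosome 16, 22381309 to 22439719), of the same group, was at 6.40, 5.55 and 6.25 FPKM in the controls and at 11.1, 10.6 and 9.56 FPKM in 263, 265 and 266. Its difference was 0.69 ± 0.08 (adjusted p = 0.00356), and in both genes control 262 was the lowest control and 266 the lowest knockout-labelled library. Etv1, the third of the group, was under 1 FPKM in every library, at 0.391, 0.343 and 0.339 FPKM in the controls and 0.583, 0.445 and 0.712 FPKM in 263, 265 and 266. The 3 genes summed to 21.7 ± 3.41 FPKM in controls and 46.3 ± 5.43 FPKM under the knockout label (± SD, 3 libraries per group), of which Etv4 held 67.5% to 73.5% and 74.4% to 77.3%.

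Phlda1 (ENSMUSG00000020205, chromosome 10, 111506286 to 111508645), a pleckstrin homology domain protein induced through ERK, stood at 12.6, 12 and 13.0 FPKM in the controls and at 21.8, 20.1 and 16.2 FPKM in 263, 265 and 266. The mean rose from 12.6 ± 0.531 to 19.4 ± 2.88 FPKM (± SD, 3 libraries per group), and the log2 difference was 0.58 ± 0.11 (limma adjusted p = 0.0130), a call lost without 265 (adjusted p = 0.0551). Its exons share 727 bases with the noncoding gene Gm28592 on the opposite strand, which itself went from a mean of 17.1 to 27.9 FPKM (0.67 ± 0.12, adjusted p = 0.0111). The shared stretch is 727 of the 2205 exonic bases of Phlda1, and without strand information the reads of both genes cannot be told apart there.

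The members that rose did not order the libraries alike. Among the knockout-labelled libraries 266 had the lowest value of 7 of the 9 members that rose and the highest of 1, while 263 had the highest of 5 and 265 of 3. Among controls 262 had the lowest value of 6 of the 9, and 261 the highest of 6. Leaving out each library in turn, 7 of the 9 (all but Spred1 and Phlda1) passed limma's threshold in each of the 6 fits, and the same 7 passed under every alternative in which they were tested. The grid of differences by setting shows this row by row. Of the 8 keratinocyte markers 2 rose and 0 fell (7.98% and 15.5% of all tested genes). The basal keratin Krt14 went from 2582 to 5949 FPKM and Krt5 from 3515 to 5212 FPKM in group means (limma adjusted p = 0.00357 and 0.00952), while Trp63, also basal, went from 163 to 174 FPKM with overlapping groups (adjusted p = 0.568). The suprabasal genes Krt10 and Krtdap were lower without overlap and did not pass (adjusted p = 0.254 and 0.238). Krt1, Lor and Flg, also suprabasal, overlapped between groups (limma adjusted p = 0.982, 0.342 and 0.538). The part of these genes in the higher feedback genes was not tested.

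**Figure D3:**
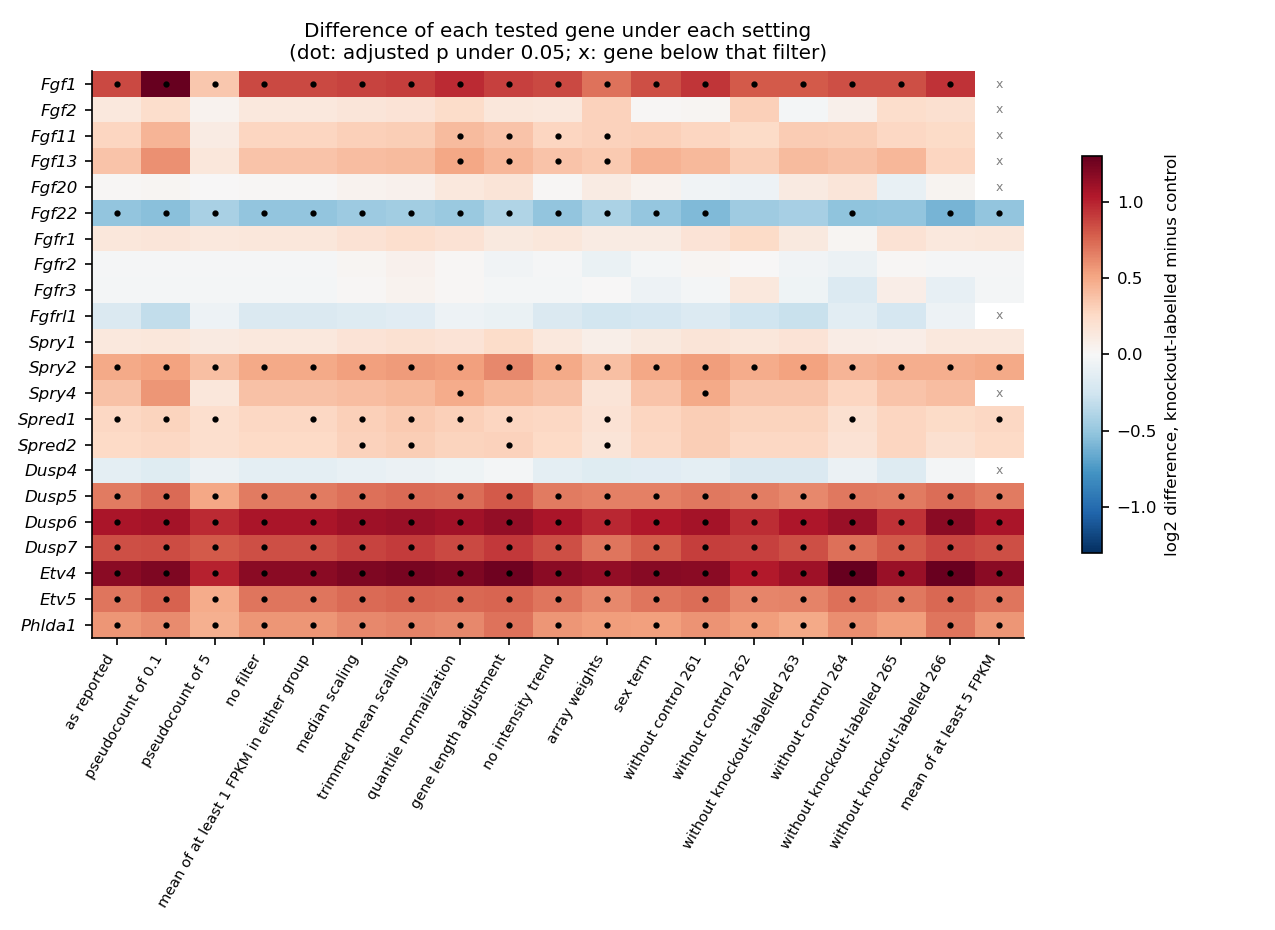
Log2 difference of the 22 tested members (rows) as reported and under 18 alternatives (columns), with a dot where the adjusted p is under 0.05 and a cross where the gene fell below the filter. The rows of Spry2, Dusp5, Dusp6, Dusp7, Etv4 and Etv5 carry a dot in every column, Fgf1 in every column where it was tested, and those of Fgfr1, Fgfr2 and Fgfr3 carry none.

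The other 10 members had means under 1 FPKM and were not tested. The dermal ligands Fgf7 and Fgf10 were at most 0.101 and 0.0441 FPKM in any library, and Fgf9 at most 0.0461 FPKM. Fgfr4 was at most 0.0937 FPKM and Spry3 at most 0.0556 FPKM. Fgf21, the endocrine FGF of liver, ran from 0.0540 to 0.402 FPKM, and Spred3 from 0.436 to 1.17 FPKM, with overlapping groups in both. Fgf5, which ends hair growth in the follicle cycle, stood at 0.315, 0.125 and 0.391 FPKM in the controls and at 0.0530, 0.116 and 0.0917 FPKM in 263, 265 and 266. Fgf18 stood at 0.209, 0.193 and 0.153 FPKM in the controls and at 0.0916 and 0.0276 FPKM in 263 and 265, and was listed at 0 in 266. Fgf5, Fgf18 and Etv1 were the 3 untested members whose groups did not overlap, the first 2 lower under the knockout label. Among all tested genes 16.7% did not overlap with the knockout-labelled libraries higher, and 28.8% with them lower. With no filter on low values Fgf18 passed (-0.19 ± 0.04, limma adjusted p = 0.0419) and Fgf5 and Etv1 did not (adjusted p = 0.162 and 0.131). That fit called 2231 of 26986 genes in either direction. The other 10 mouse Fgf genes listed beside the members were also all under 1 FPKM.

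Around the members, 3 further lists cover the steps of the pathway that the set leaves out. Of 66 tested genes in these lists 14 rose and 4 fell, where 7.98% of all tested genes rose and 15.5% fell, with a median log2 difference of 0.10 against -0.06. In the list of co-receptors and heparan sulfate genes 4 of 20 rose and 1 fell (median 0.14). Leaving out 1 library, the count that rose was 2 without 261 or 262, 1 without 263 or 265, 6 without 264 and 3 without 266, and the count that fell was 0 without 261, 263, 265 or 266. Fgfbp1, a secreted carrier that releases FGFs from heparan sulfate, stood at 166, 139 and 207 FPKM in the controls and at 310, 343 and 288 FPKM in 263, 265 and 266 (0.89 ± 0.15, limma adjusted p = 0.00915). Sdc1 (0.42 ± 0.08), the syndecan typical of epithelia, Ext1 (0.50 ± 0.12), a polymerase of the heparan sulfate chain, and Flrt2 (0.42 ± 0.10), a membrane protein of a family that binds FGF receptors, rose. The syndecan Sdc4 (-0.27 ± 0.06) fell from 119 ± 5.19 to 98.1 ± 1.81 FPKM (± SD, 3 libraries per group).

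Of the 23 adaptor, RAS and ERK cascade genes 1 rose and 2 fell, shares below those over all tested genes (7.98% and 15.5%), and the median was 0.02. The scaffold Ksr1, which holds RAF, MEK and ERK together, stood at 4.49, 4.28 and 4.39 FPKM in the controls and at 6.17, 6.76 and 6.02 FPKM in 263, 265 and 266 (0.44 ± 0.07, limma adjusted p = 0.00770). The docking adaptor Gab1 (-0.28 ± 0.07) and the kinase Araf (-0.30 ± 0.08) fell. All 4 of the median scaling, trimmed mean scaling, quantile normalization and gene length adjustments took the call of Gab1 away (adjusted p = 0.0593, 0.103, 0.0549 and 0.0525). Mapk3, the ERK kinase ERK1, differed by -0.24 ± 0.08 (adjusted p = 0.0722). The count of this list that fell was 4 without control 264 and 0 without any other single library, and the count that rose was 2 without control 262.

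Among 23 other Dusp phosphatases, attenuators and targets 9 rose and 1 fell (median 0.27), where 7.98% of all tested genes rose and 15.5% fell. The count that rose was 5 without 263 and 6 to 8 without each of the others, and the count that fell was 3 without control 264 and 0 without 265 or 266. Fosl1, the AP-1 subunit FRA1, stood at 2.0, 1.87 and 2.12 FPKM in the controls and at 27.8, 30.3 and 20.1 FPKM in 263, 265 and 266 (3.16 ± 0.15, limma adjusted p = 0.000326). Dusp9, the third cytoplasmic phosphatase beside Dusp6 and Dusp7, was at 1.75, 1.57 and 1.72 FPKM in the controls and at 6.38, 7.69 and 6.52 FPKM in 263, 265 and 266. Its log2 difference of 1.55 ± 0.09 (adjusted p = 0.000465) was larger than that of any Dusp member of the set. The immediate early factor Egr1 (1.08 ± 0.10), Myc (0.67 ± 0.10) and the ETS factor Elk3 (0.52 ± 0.08) rose too. Ets1, Ier2, Ier3 and Fos, named after their values were seen, complete the 9. Dusp2 (-0.52 ± 0.10), a nuclear phosphatase abundant in leukocytes, fell from 8.09 ± 0.764 to 5.35 ± 0.545 FPKM (± SD, 3 libraries per group). Myeloid markers fell in 5 of 6 tested genes, with summed levels of 51.3 to 67.7 FPKM in controls and 33.3 to 36.2 FPKM under the knockout label, and their part in the lower Dusp2 was not tested. Of the 14 pathway genes given with values as called, Fgfbp1, Ksr1, Fosl1, Dusp9, Egr1, Myc and Elk3 passed under every alternative in which they were tested, and the other 7 each lost the call without 265. The attenuators Il17rd, Lrig1 and Errfi1 and the phosphatases Dusp1, Dusp8, Dusp10 and Dusp16 did not pass.

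**Figure D4:**
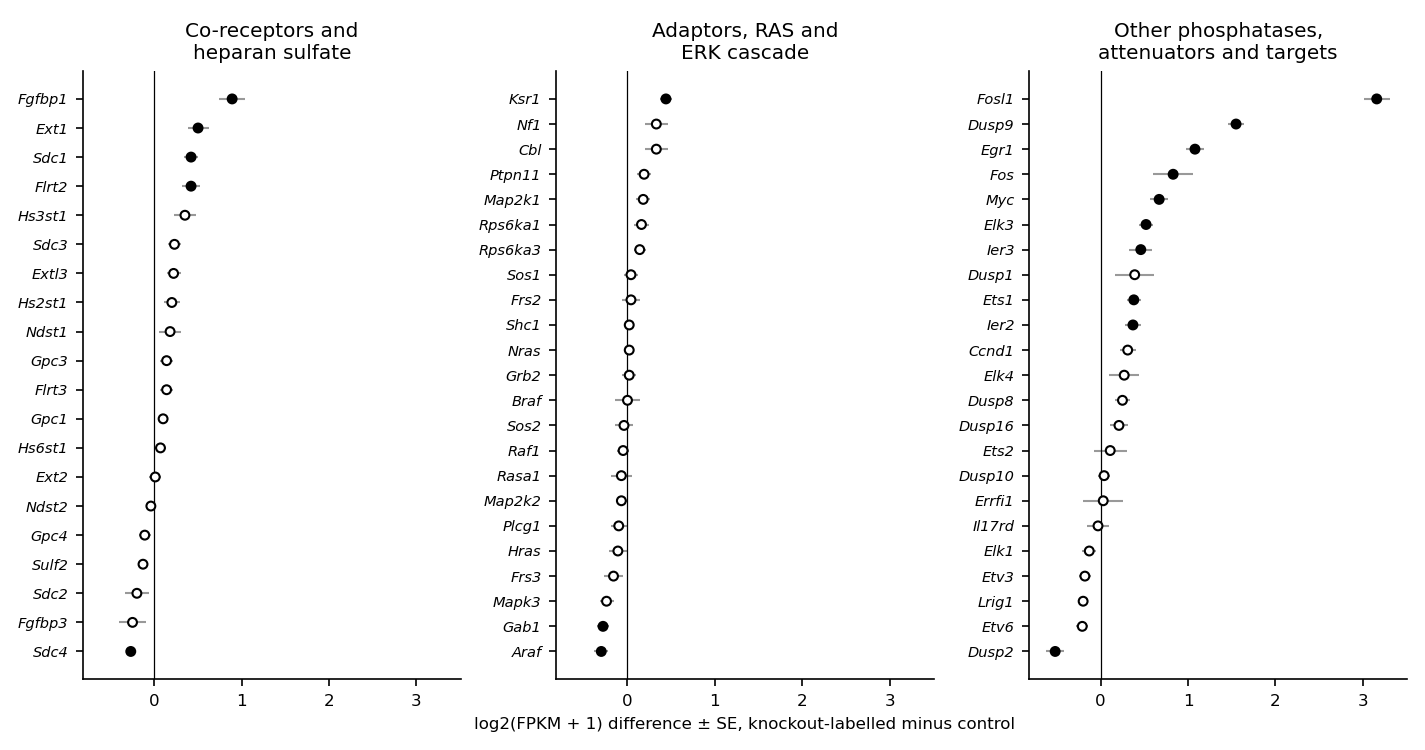
Log2(FPKM + 1) difference ± SE, knockout-labelled minus control, for the 66 tested genes of the 3 pathway lists, filled where limma's adjusted p is under 0.05. The cascade genes in the middle panel lie close to 0, from -0.30 (Araf) to 0.44 (Ksr1), while Fosl1 (3.16), Dusp9 (1.55) and Egr1 (1.08) stand out on the right.

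Markers of other cells were read beside these results, where 7.98% of all tested genes rose and 15.5% fell. Fibroblast markers summed to 153 to 185 FPKM in controls and 169 to 202 FPKM under the knockout label. Of 5 tested, 2 were higher and 0 lower. Dcn (means of 105 and 111 FPKM) and Fbln1 (40.5 and 44 FPKM) held most of that sum and overlapped between groups. Col1a1 (3.61 and 7.64 FPKM) and Col1a2 (6.49 and 10.1 FPKM) rose. Col3a1 was higher without overlap and did not pass (limma adjusted p = 0.07). Lum, Pdgfra and Twist2, under the filter, overlapped. The dermal papilla markers, all under the filter, summed to 1.31 to 1.54 and 1.55 to 1.79 FPKM. Endothelial markers summed to 2.84 to 5.01 FPKM and 3.83 to 4.69 FPKM, and adipocyte markers to 13.7 to 23.5 and 9.62 to 14.6 FPKM with 1 of 2 tested lower. The lower one was Pparg (means of 7.56 and 4.56 FPKM, limma adjusted p = 0.00357). Fabp4 overlapped between groups, as did Adipoq and Plin1, which were under the filter. Melanocyte markers fell in 4 of 6 genes (367 to 450 against 277 to 310 FPKM). Schwann cell markers were at 22.0 to 25.7 and 24.5 to 25.1 FPKM with 1 of 3 tested higher, muscle markers at 11.7 to 27.6 and 13.3 to 47.5 FPKM with 0 of 5 called, and T cell markers at 13.6 to 23.3 and 31.2 to 34.7 FPKM. Thy1 carried the higher T cell sum, with means of 9.21 and 29.2 FPKM. Of the 2 tested T cell genes Thy1 rose and Cd3g fell (5.80 to 1.27 FPKM). Cd3e, Trdc and Il2rb, under the filter, were lower in every knockout-labelled library than in any control. Trac, also under the filter, overlapped between groups, at means of 0.534 FPKM in controls and 0.859 FPKM under the knockout label. Cd207, a defining Langerhans marker, was listed at 0 in 4 of 6 libraries. The part of these cells in the members' differences was not tested.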

How the data were processed

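The authors deposited 1 table of FPKM with a column for each of the 6 libraries, per the file headers. CASAVA and Cufflinks with GRCm38 are named in the submitters' processing notes without versions. The aligner, annotation, strandedness and kind of RNA selected were not given in the sources used here. FPKM divides by library total and gene length, so abundant genes and length trends shift other values. Of 49452 rows, 49195 matched GENCODE M21 and 257 did not, and 75 rows with a symbol also held by a higher row were left out. Some listed markers are not analysed here, and some pathway genes are not reported here.

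The 13147 genes that averaged 1 FPKM or more over the 6 libraries entered limma 3.58.1 in R 4.3.3 on log2(FPKM + 1), a scale that understates changes of low genes, with an intensity trend (prior degrees of freedom 2.83). P-values are two-sided and Benjamini-Hochberg adjusted over all tested genes at 0.05, and 95% intervals use the moderated SE without that adjustment. FPKM are not counts, so no count model was used. Members and lists were chosen with earlier results of these data known. Every tested member is named, with the called genes of each pathway list (at most 6, by smallest p). Promoter windows within 2000 bases of the GENCODE start were used. Python 3.11.15, pandas 2.3.3 and matplotlib 3.10.9 made tables and figures. Library numbers pair nothing. Alternatives changed pseudocount, filter, scaling, length adjustment, variance model, weights, a sex term (read from Y-linked genes), threshold and each library. By those Y-linked genes 2 of the 3 control libraries and 1 of the 3 knockout-labelled libraries were male.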

Additional observations from a re-analysis of the deposited data

How the results depend on the processing

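No paired analysis was possible because the library numbers differ for every library. Of the results for single members, 346 kept their direction and their side of the threshold, 12 lost a call and 14 gained one, and 16 uncalled values turned sign. The count of members that rose was 9 and ran from 7 to 13 over all settings (7 to 9 leaving out 1 library), and that of members that fell was 1, with 2 under no filter and 0 to 1 leaving out 1 library. The 13 came at a threshold of 0.10, where 4411 of 13147 genes were called, 34% of them higher. With array weights 12 members rose, where 6141 genes were called, 37.6% of them higher. The 7 came without 265, where 1639 genes were called, 33.1% of them higher. Over all genes 3082 were called, against 6141 with array weights and 1821 with a sex term, and 1363 to 3709 leaving out 1 library (1860 without control 261, 1363, 1639 and 1468 without 263, 265 and 266). The array weights were uneven, at 5.989, 0.622 and 0.189 for controls 261, 262 and 264. They were 1.133, 0.799 and 1.567 for 263, 265 and 266. Pathway genes that rose numbered 14, but 9 under no filter, 8 with a sex term and 7 to 15 leaving out 1 library, with 7 and 8 without 263 and 265. Those that fell numbered 4, but 2 under no filter, 10 with array weights, 1 with a sex term, 7 at a threshold of 0.10 and 0 to 8 leaving out 1 library, with 8 without control 264, 1 or 2 without 261, 262 or 263 and 0 without 265 or 266. Those that turned were Fgf2, Fgf20, Fgfr2 and Fgfr3. Fgfr2 was 0.028, 0.053 and 0.019 and Fgfr3 0.019, 0.043 and 0.018 after median scaling, trimmed mean scaling and quantile normalization, and Fgfr3 was 0.0031 with array weights. Leaving out 1 library, Fgfr2 ran from -0.077 to 0.0281, Fgfr3 from -0.18 to 0.135, Fgf20 from -0.0982 to 0.159 and Fgf2 from -0.0252 to 0.313. Fewer libraries leave fewer degrees of freedom, and the cause of the other shifts was not tested. Single FPKM values below about 1 rest on few reads, and no counting error could be given for them.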
